A study of Saccharomyces cerevisiae with 13 samples.

Results

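The retrograde response genes described here are 10 genes of budding yeast: the enzyme genes CIT2, DLD3, CIT1, ACO1, IDH1 and IDH2, and the regulator genes RTG1, RTG2, RTG3 and MKS1. They were chosen by name, and each was matched to 1 probe set, so that 10 of the 5449 genes on the array are described. None of the 10 probe sets has a name that marks it as shared between similar transcripts. The series holds 13 Affymetrix arrays of Saccharomyces cerevisiae BY4741 from mid-log cultures in YPD at 30 °C, each exposed to a compound or the solvent for 30 min. The groups were rapamycin at 100 nM (n = 2), SMER1 at 20 µM (n = 2), SMER1 at 20 µM with rapamycin at 100 nM, called SMER1+Rapa (n = 2), SMER2, SMER3, SMER4 and SMER5 at 20 µM (n = 1 each), and DMSO, the solvent (n = 3). BY4741 is a haploid laboratory strain with defects in HIS3, LEU2, MET17 and URA3, shared by all groups. The labels do not say whether numbered replicates came from separate cultures, so p-values measure the spread between these arrays, which may be technical. Rapamycin inhibits TOR complex 1, the kinase that couples growth to nutrients, and the SMERs are small molecules, known by code names, that enhance its effect on growth.

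The retrograde pathway carries a signal from mitochondria to the nucleus. The basic helix-loop-helix factors Rtg1 and Rtg3 form a heterodimer that enters the nucleus and activates genes for the first steps of the tricarboxylic acid (TCA) cycle and its peroxisomal branch, which together supply 2-oxoglutarate for glutamate synthesis. Rtg2, a cytoplasmic protein with an ATP-binding domain, binds and restrains Mks1, the negative regulator that holds Rtg3 in the cytoplasm. TOR complex 1 is known to dampen the pathway in nutrient-rich medium, and in respiring cells CIT1, ACO1, IDH1 and IDH2 also answer to the Hap2/3/4/5 activator.

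Levels are deposited log2 signal intensities, and a difference is a log2 fold change with its limma standard error after ±. Calls rest on limma's p adjusted by Benjamini-Hochberg over all 5449 genes, with a threshold of 0.05. The spread was pooled over the 4 replicated groups. The single arrays of SMER2 to SMER5 were taken to vary to the same extent, and their differences have no replicate check. All comparisons with DMSO share the same 3 DMSO arrays. Array medians lay between 10.99 and 11.07, whereas the 95th percentile of genes lay between 13.65 and 13.67 in rapamycin, 13.58 and 13.63 in SMER1, 13.55 and 13.60 in SMER1+Rapa, at 13.45 in SMER3, and between 13.18 and 13.43 in DMSO. The bright end of the arrays, where the 6 enzyme genes lie, therefore differed between groups. Quantile normalization moved the median of all genes from 0.16 to 0.03 for rapamycin against DMSO, from 0.09 to −0.04 for SMER1, from 0.02 to −0.09 for SMER3, and from −0.18 to −0.00 for the interaction. The arrays had similar medians and their normalization is not stated, so less of 1 mRNA per cell and more of all other RNA cannot be told apart. Of the strain markers, URA3 lay between 1.97 and 4.55 and MET17 between 4.05 and 5.78 on all arrays, LEU2 lay between 6.29 and 8.61, and HIS3 between 12.14 and 13.18, a bright signal that does not show the labelled strain's defect.

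CIT2 encodes the peroxisomal citrate synthase and is the standard reporter of the pathway. Its signal was 14.03 and 14.01 in rapamycin, 13.32 and 13.03 in SMER1, 13.92 and 13.92 in SMER1+Rapa, 12.91 in SMER3, 12.40 in SMER2, 12.58 in SMER4 and 12.71 in SMER5, against 12.68, 12.46 and 12.42 in DMSO. The rapamycin, SMER1 and SMER1+Rapa arrays all lay above the DMSO arrays, and the SMER1 arrays lay between those of rapamycin and DMSO. CIT2 rose by 1.50 ± 0.11 with rapamycin (adjusted p = 2.56e-05), by 1.40 ± 0.11 with SMER1+Rapa (adjusted p = 1.49e-05) and by 0.66 ± 0.11 with SMER1 (adjusted p = 0.00124). After quantile normalization the SMER1 difference was 0.42 (adjusted p = 0.00670). The widest gap between neighbouring groups, 0.74, separated SMER1+Rapa from SMER1.

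DLD3 encodes a cytosolic D-lactate dehydrogenase that also oxidises D-2-hydroxyglutarate, and is an established Rtg1/Rtg3 target. Its signal was 13.70 and 13.60 in rapamycin, 12.89 and 12.58 in SMER1, 13.39 and 13.25 in SMER1+Rapa, 12.68 in SMER3, 12.57 in SMER2, 12.72 in SMER4 and 12.71 in SMER5, against 12.83, 12.72 and 12.57 in DMSO. Every array that had received rapamycin stood above all the others, and the SMER1 arrays overlapped the DMSO arrays. DLD3 rose by 0.94 ± 0.12 with rapamycin (adjusted p = 0.000302) and by 0.62 ± 0.12 with SMER1+Rapa (adjusted p = 0.00196). The difference for SMER1 was 0.03 ± 0.12 as deposited (adjusted p = 0.854) and −0.16 after quantile normalization (adjusted p = 0.183). Quantile normalization lowered the SMER1+Rapa difference to 0.40 (adjusted p = 0.00692).

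CIT1 encodes the mitochondrial citrate synthase, which opens the TCA cycle. Its signal was 13.99 and 13.95 in rapamycin, 13.79 and 13.77 in SMER1, 14.09 and 14.05 in SMER1+Rapa, 13.18 in SMER3, 12.74 in SMER2, 12.86 in SMER4 and 12.88 in SMER5, against 12.82, 12.83 and 12.79 in DMSO. Replicate arrays of CIT1 differed little (pooled SD 0.03), and rapamycin, SMER1 and SMER1+Rapa each formed a tight pair well above DMSO. CIT1 rose by 1.16 ± 0.06 with rapamycin (adjusted p = 4.89e-06), by 0.97 ± 0.06 with SMER1 (adjusted p = 8.04e-06) and by 1.25 ± 0.06 with SMER1+Rapa (adjusted p = 1.26e-06). Of the 7 gaps between neighbouring groups in the order of CIT1 levels, 5 exceeded 2 pooled SD. The gaps under that size separated SMER4 from DMSO and SMER5 from SMER4.

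ACO1 encodes aconitase, which converts citrate to isocitrate. Its signal was 13.92 and 13.87 in rapamycin, 13.13 and 13.19 in SMER1, 13.56 and 13.60 in SMER1+Rapa, 13.19 in SMER3, 12.39 in SMER2, 12.94 in SMER4 and 12.93 in SMER5, against 12.87, 12.93 and 12.81 in DMSO. Rapamycin gave the highest arrays and SMER2 the lowest one. ACO1 rose by 1.02 ± 0.06 with rapamycin (adjusted p = 1.38e-05), by 0.71 ± 0.06 with SMER1+Rapa (adjusted p = 3.35e-05) and by 0.29 ± 0.06 with SMER1 (adjusted p = 0.00534). The SMER1 call was lost after quantile normalization, where the difference was 0.03 (adjusted p = 0.740).

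IDH1 and IDH2 encode the subunits of the mitochondrial NAD-dependent isocitrate dehydrogenase, which makes 2-oxoglutarate. IDH1 had 13.44 and 13.40 in rapamycin, 13.05 and 13.05 in SMER1, 13.35 and 13.44 in SMER1+Rapa, 13.16 in SMER3, 11.72 in SMER2, 12.49 in SMER4 and 12.51 in SMER5, against 12.35, 12.38 and 12.30 in DMSO. IDH2 had 13.95 and 13.94 in rapamycin, 13.65 and 13.66 in SMER1, 13.89 and 13.83 in SMER1+Rapa, 13.65 in SMER3, 12.61 in SMER2, 13.12 in SMER4 and 13.07 in SMER5, against 13.07, 13.06 and 12.91 in DMSO. Both subunit genes had their highest arrays under rapamycin or SMER1+Rapa, and their lowest array under SMER2. IDH1 rose by 1.07 ± 0.06 with rapamycin, by 0.71 ± 0.06 with SMER1 and by 1.05 ± 0.06 with SMER1+Rapa (adjusted p = 8.26e-06, 4.47e-05 and 3.47e-06). IDH2 rose by 0.93 ± 0.07, 0.64 ± 0.07 and 0.85 ± 0.07 in the same comparisons (adjusted p = 2.82e-05, 0.000140 and 1.89e-05). For SMER1, quantile normalization gave 0.39 for IDH2 and 0.48 for IDH1, and both stayed called. Over the 8 group means the subunit genes correlated with r = 0.992, and each was the other's nearest neighbour among the 2812 genes whose group means had an SD of at least 0.3.

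**Figure D1:**
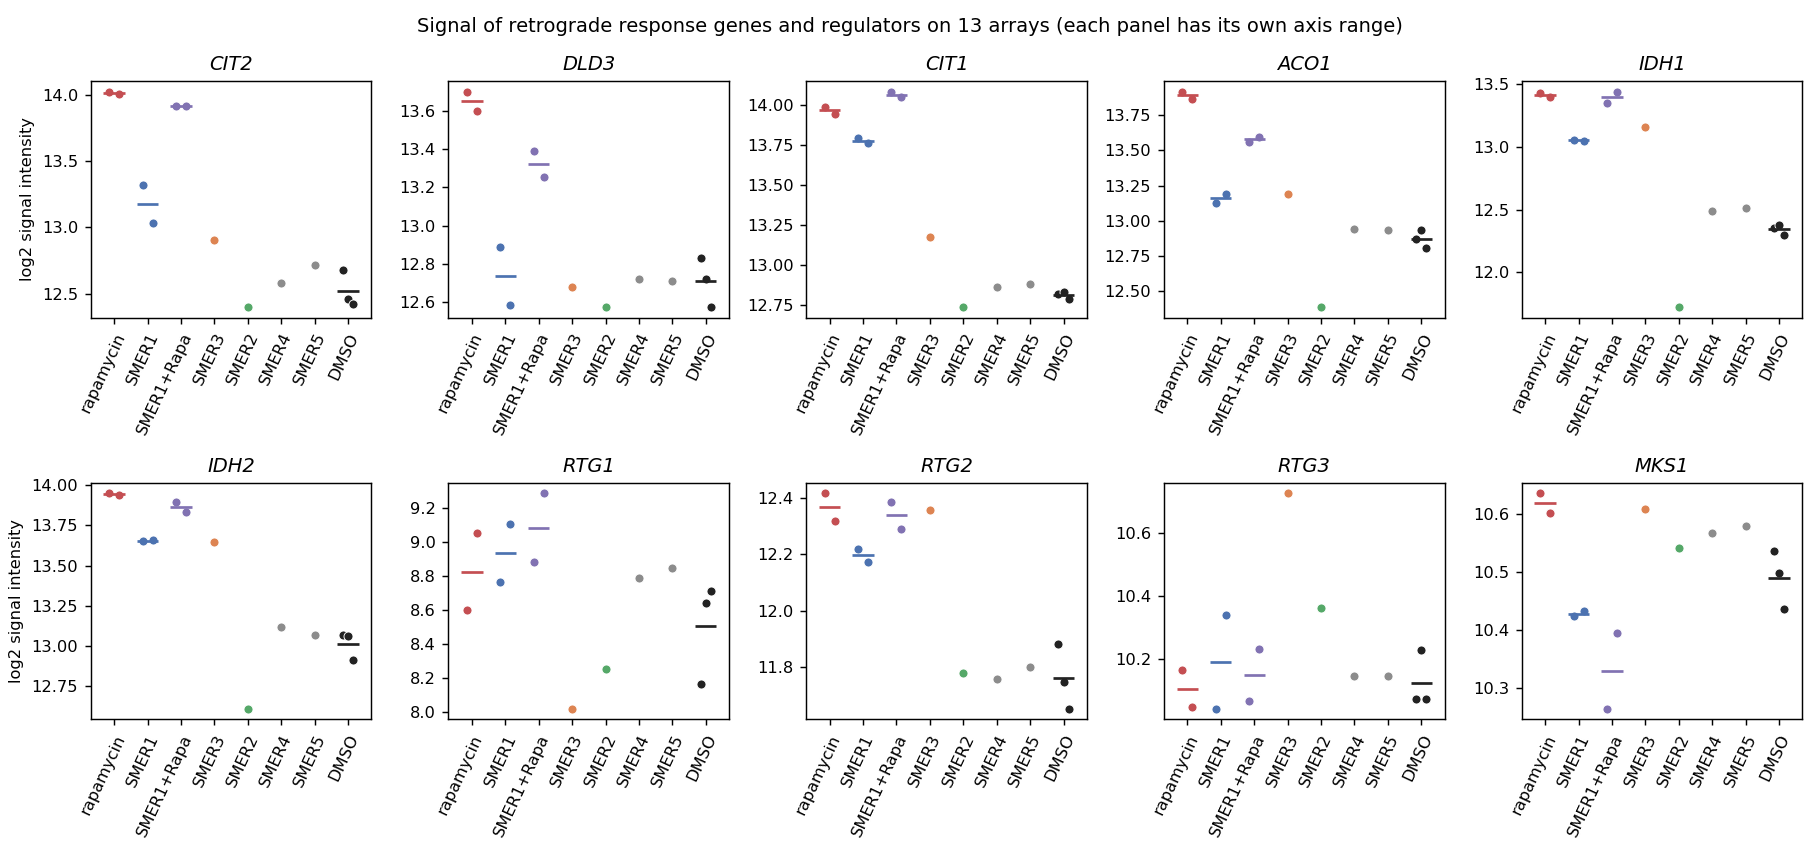
Log2 signal intensity (vertical axes, each panel with its own range) of the 10 genes in the 8 groups, 1 point per array, with a horizontal line at the mean of each replicated group. CIT2 reached 14.03 and 14.01 in rapamycin, DLD3 in SMER1 overlapped DMSO, and the lone SMER2 array was lowest for ACO1, IDH1 and IDH2.

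The regulator genes moved less than the enzyme genes. RTG2 had 12.42 and 12.32 in rapamycin, 12.22 and 12.17 in SMER1, 12.39 and 12.29 in SMER1+Rapa, 12.36 in SMER3, 11.78 in SMER2, 11.76 in SMER4 and 11.80 in SMER5, against 11.88, 11.75 and 11.65 in DMSO. RTG2 was higher than all DMSO arrays under rapamycin, SMER1, SMER1+Rapa and SMER3, and inside the DMSO range under the others. It rose by 0.61 ± 0.08 with rapamycin (adjusted p = 0.000533), by 0.44 ± 0.08 with SMER1 (adjusted p = 0.00266) and by 0.58 ± 0.08 with SMER1+Rapa (adjusted p = 0.000461).

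RTG3 and MKS1, the genes for the activator subunit and for its inhibitor, stayed within narrow ranges in most groups. RTG3 had 10.17 and 10.05 in rapamycin, 10.04 and 10.34 in SMER1, 10.07 and 10.23 in SMER1+Rapa, 10.73 in SMER3, 10.36 in SMER2, 10.15 in SMER4 and 10.15 in SMER5, against 10.08, 10.23 and 10.07 in DMSO. MKS1 had 10.64 and 10.60 in rapamycin, 10.42 and 10.43 in SMER1, 10.27 and 10.40 in SMER1+Rapa, 10.61 in SMER3, 10.54 in SMER2, 10.57 in SMER4 and 10.58 in SMER5, against 10.54, 10.50 and 10.44 in DMSO. The SMER3 array was the highest for RTG3, and both SMER1+Rapa arrays of MKS1 lay below every other array. Neither gene was called with rapamycin, SMER1 or SMER1+Rapa against DMSO. The MKS1 differences were 0.13 ± 0.07, −0.06 ± 0.07 and −0.16 ± 0.07 (adjusted p = 0.131, 0.444 and 0.0607), and the RTG3 differences lay between −0.02 and 0.07. For SMER1+Rapa, MKS1 was called lower without DMSO replicate 3 (−0.19, adjusted p = 0.0490) and was at −0.07 after quantile normalization (adjusted p = 0.325).

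RTG1 gave the dimmest signal and the widest spread of the 10 genes (pooled SD 0.29). It had 8.60 and 9.05 in rapamycin, 8.77 and 9.11 in SMER1, 8.89 and 9.29 in SMER1+Rapa, 8.02 in SMER3, 8.25 in SMER2, 8.79 in SMER4 and 8.85 in SMER5, against 8.16, 8.64 and 8.72 in DMSO. In each of the 4 replicated groups the array numbered 1 lay 0.34 to 0.48 below the array numbered 2, and all lone arrays carry the number 1. RTG1 was called higher with SMER1+Rapa, by 0.58 ± 0.22 (adjusted p = 0.0494), and that call was lost after quantile normalization (adjusted p = 0.0986) and when any of 5 arrays was left out (adjusted p = 0.0549 to 0.274). By a moderated F test over the 7 comparisons with DMSO, 7 of the 10 genes differed among the groups, namely the 6 enzyme genes and RTG2, where 75% of all genes did. RTG1, RTG3 and MKS1 were not called by that test (adjusted p = 0.102, 0.0731 and 0.0810).

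Rapamycin raised all 6 enzyme genes and 1 of the 4 regulator genes, RTG2. That makes 7 of 10 genes higher and 0 lower, while 39.7% of all genes were called higher in this comparison and 20.4% lower. The median difference was 0.93 over the 10 genes, 1.05 over the enzyme genes and 0.16 over all genes. In linear terms the enzyme genes rose between 1.90-fold for IDH2 and 2.83-fold for CIT2 as deposited. Quantile normalization lowered all 6 of these log2 differences, and all stayed called. They were then 1.31 for CIT2, 0.92 for CIT1, 0.79 for IDH1, 0.77 for ACO1, 0.66 for IDH2 and 0.66 for DLD3.

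SMER1 raised 5 of the 6 enzyme genes, CIT1, IDH1, CIT2, IDH2 and ACO1 in that order of size, and RTG2. Thus 6 of 10 genes were called higher and 0 lower, with 36.5% of all genes called higher and 25% lower, and the median was 0.43 over the 10 genes and 0.09 over all genes. DLD3 was the enzyme gene that was not called.

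SMER1 and rapamycin differed most in CIT2, DLD3 and ACO1. In the direct comparison of SMER1 with rapamycin, all 6 enzyme genes were called lower, where 19.7% of all genes were. DLD3 was lower by −0.92 ± 0.13 (adjusted p = 0.00147), CIT2 by −0.84 ± 0.12 (adjusted p = 0.00161) and ACO1 by −0.73 ± 0.07 (adjusted p = 0.000293). IDH1, IDH2 and CIT1 differed by −0.36 ± 0.07, −0.29 ± 0.08 and −0.19 ± 0.06 (adjusted p = 0.00481, 0.0220 and 0.0444). The CIT1 call was lost when any of 8 arrays was left out (adjusted p = 0.0545 to 0.177) and the IDH2 call when any SMER1 or rapamycin array was (adjusted p = 0.0754 to 0.0873). No regulator gene was called in this comparison, with differences of −0.17 ± 0.09 for RTG2, −0.19 ± 0.07 for MKS1, 0.09 ± 0.12 for RTG3 and 0.11 ± 0.25 for RTG1.

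**Figure D2:**
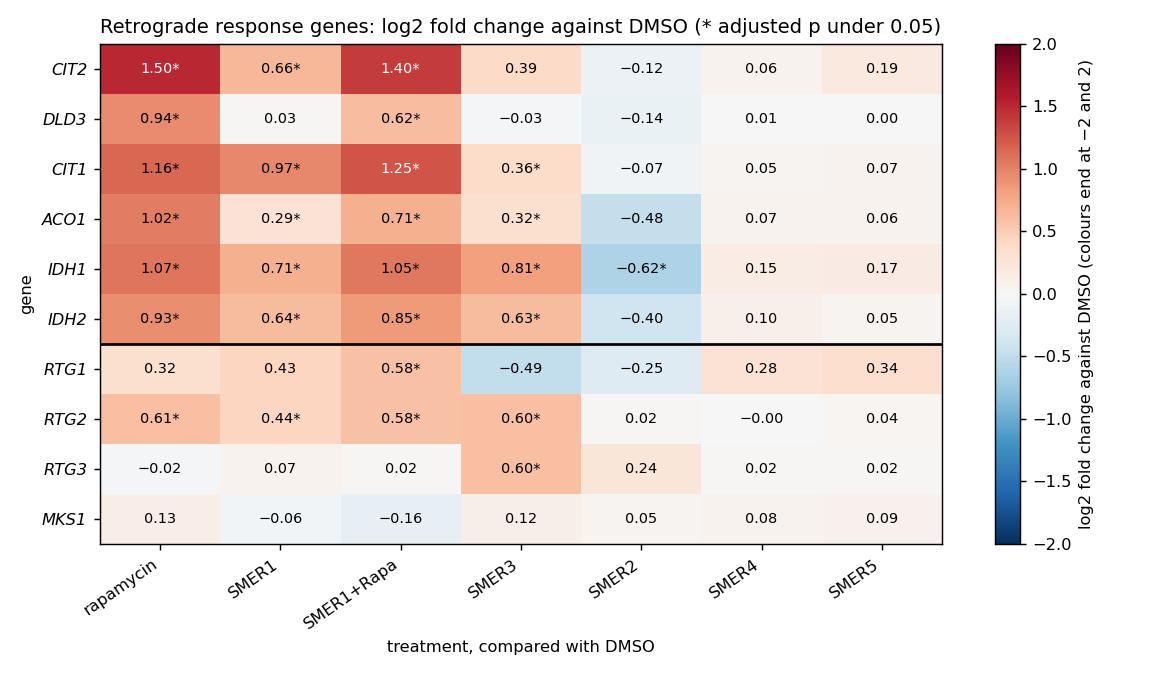
Log2 fold change against DMSO of the 10 genes (rows, enzymes above the line and regulators below it) in 7 treatments (columns), with colours that end at −2 and 2. An asterisk marks a Benjamini-Hochberg adjusted p from limma under 0.05; the called values run from −0.62 for IDH1 in SMER2 to 1.50 for CIT2 in rapamycin.

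SMER1+Rapa raised all 6 enzyme genes together with RTG2 and RTG1, which makes 8 of 10 genes higher and 0 lower against DMSO, where 39.6% of all genes were called higher and 31.2% lower. The median was 0.66 over the 10 genes and 0.09 over all genes. Quantile normalization lowered the differences of all 6 enzyme genes from DMSO, to between 0.40 for DLD3 and 1.26 for CIT2, and all 6 stayed called. No enzyme gene was called higher with SMER1+Rapa than with rapamycin alone. For CIT1 both SMER1+Rapa arrays lay above both rapamycin arrays, with a difference of 0.10 ± 0.06 (adjusted p = 0.226), and 0.16 after quantile normalization (adjusted p = 0.0563). Compared with rapamycin, SMER1+Rapa gave −0.02 ± 0.07 for IDH1, −0.08 ± 0.08 for IDH2 and −0.10 ± 0.12 for CIT2, none of them called. ACO1 was lower by −0.31 ± 0.07 (adjusted p = 0.00922) and MKS1 by −0.29 ± 0.07 (adjusted p = 0.0146), so that 2 of 10 genes were called lower, where 28.2% of all genes were called lower. The MKS1 call was lost after quantile normalization (−0.17, adjusted p = 0.0511) and without SMER1+Rapa replicate 1 or either rapamycin array (adjusted p = 0.0532 to 0.0992), and the ACO1 call without SMER1+Rapa replicate 1 (adjusted p = 0.0579). DLD3 was at −0.33 ± 0.13 (adjusted p = 0.0690), and was called lower with an intensity trend (adjusted p = 0.0440), without the dimmest 25% of genes (adjusted p = 0.0476) and without either SMER1 array (adjusted p = 0.0467).

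Rapamycin added to SMER1 raised 5 of the 10 genes, all of them enzyme genes, where 4.96% of all genes were called higher. CIT2 rose by 0.74 ± 0.12 (adjusted p = 0.00562), DLD3 by 0.59 ± 0.13 (adjusted p = 0.0184), ACO1 by 0.42 ± 0.07 (adjusted p = 0.00654), IDH1 by 0.34 ± 0.07 (adjusted p = 0.0116) and CIT1 by 0.29 ± 0.06 (adjusted p = 0.0172). The rise of CIT2 exceeded that of 97.9% of all genes in this comparison and that of DLD3 exceeded 96.6%. IDH2 was at 0.21 ± 0.08 (adjusted p = 0.113) and was called after quantile normalization (0.26, adjusted p = 0.0162), and the 4 regulator genes lay between −0.10 and 0.15 with none called. When 1 of the SMER1 or SMER1+Rapa arrays was left out, between 1 and 3 genes were called.

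For 5 of the enzyme genes and RTG2, the combination fell short of the sum of the SMER1 and rapamycin effects. For CIT1 the single effects summed to 2.12 and the combination gave 1.25, and for CIT2 they summed to 2.16 and the combination gave 1.40. The interaction was −0.87 ± 0.08 for CIT1 (adjusted p = 0.000593), −0.73 ± 0.09 for IDH1 (adjusted p = 0.00168), −0.72 ± 0.10 for IDH2 (adjusted p = 0.00308) and −0.61 ± 0.10 for ACO1 (adjusted p = 0.00443). It was −0.76 ± 0.16 for CIT2 (adjusted p = 0.0136) and −0.47 ± 0.12 for RTG2 (adjusted p = 0.0312). Thus 6 of 10 genes had a called negative interaction, while 21.3% of all genes did, and 60.5% of the 1583 genes called higher with rapamycin and with SMER1. DLD3, MKS1, RTG1 and RTG3 were not called, with −0.35 ± 0.17, −0.23 ± 0.10, −0.17 ± 0.33 and −0.02 ± 0.16. After quantile normalization the interaction was −0.58 for CIT1, −0.41 for IDH1, −0.40 for IDH2 and −0.31 for ACO1 (adjusted p = 0.00295, 0.0169, 0.0102 and 0.0490), and the calls of CIT2 (−0.47, adjusted p = 0.0534) and RTG2 (−0.35, adjusted p = 0.0522) were lost. The CIT2 call was also lost without SMER1+Rapa replicate 2 (adjusted p = 0.0508), and the RTG2 call without any of 7 arrays (adjusted p = 0.0509 to 0.110). The rapamycin arrays of CIT2 stood at 14.03 and 14.01, and the SMER1+Rapa arrays of CIT1 at 14.09 and 14.05. These lay near the highest value of any probe set on any array, 14.67. The rapamycin arrays of IDH2 followed at 13.95 and 13.94. The part of an upper limit of the signal in the interactions was not tested for any of the genes.

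**Figure D3:**
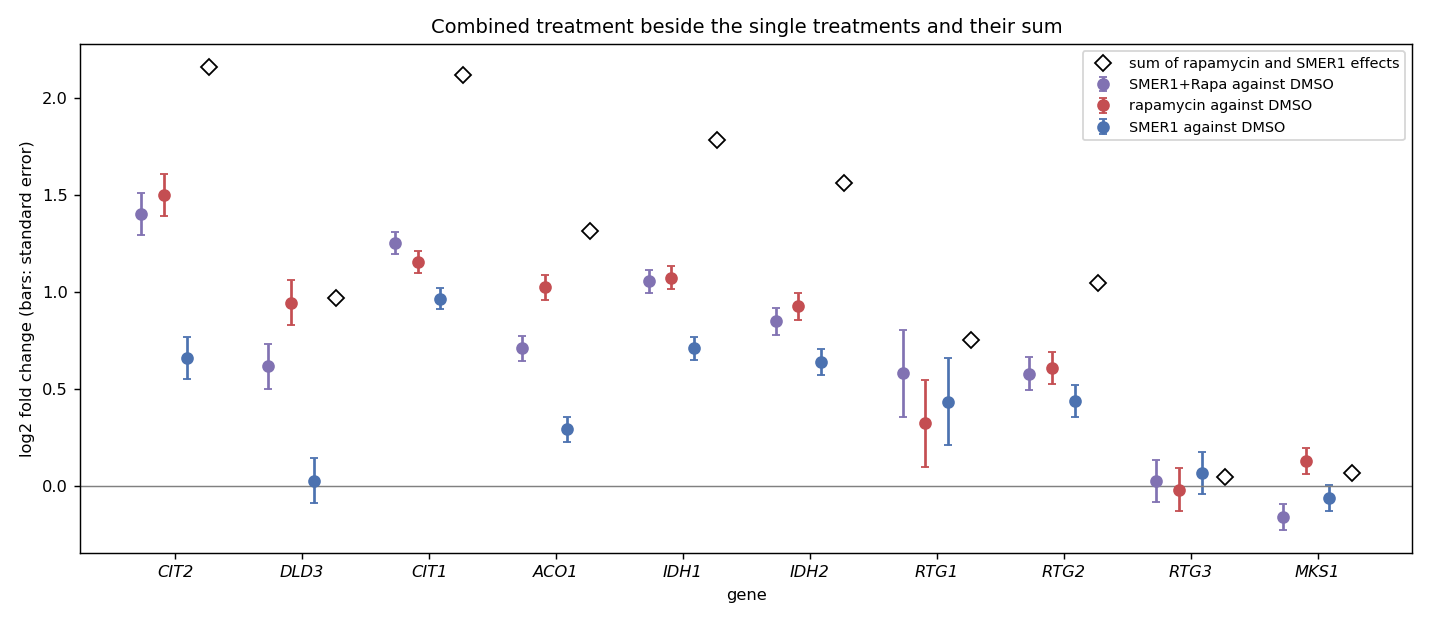
Log2 fold change against DMSO (vertical axis, bars of 1 standard error from limma) of the 10 genes in SMER1+Rapa, rapamycin and SMER1, with an open diamond at the sum of the rapamycin and SMER1 effects. For CIT1 the combination gave 1.25 and the sum 2.12; for DLD3 they were 0.62 and 0.97.

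SMER3 raised 4 enzyme genes and 2 regulator genes on its lone array, with another order among the enzymes. IDH1 rose by 0.81 ± 0.08 (adjusted p = 0.000186) and IDH2 by 0.63 ± 0.09 (adjusted p = 0.00117), against 0.36 ± 0.07 for CIT1 (adjusted p = 0.00596) and 0.32 ± 0.08 for ACO1 (adjusted p = 0.0183). RTG2 and RTG3 each rose by 0.60 (SE 0.11 and 0.14; adjusted p = 0.00385 and 0.0127). That is 6 of 10 genes higher and 0 lower, where 21.6% of all genes were called higher and 14.8% lower. CIT2 was at 0.39 ± 0.14 and missed the threshold (adjusted p = 0.0629), which it passed without DMSO replicate 1 (adjusted p = 0.0276) or without either SMER1 array (adjusted p = 0.0434). DLD3 was at −0.03 ± 0.15, MKS1 at 0.12 ± 0.08 and RTG1 at −0.49 ± 0.28 as deposited. After quantile normalization the ACO1 call was lost (0.23, adjusted p = 0.0526) and RTG1 was called lower (−0.93, adjusted p = 0.0297).

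Set directly against SMER1 at the same dose and time, SMER3 differed in 3 of the 10 genes, with 20.6% of all genes called higher and 26.1% lower. CIT1 was lower by −0.60 ± 0.07 (adjusted p = 0.000721) and RTG1 by −0.92 ± 0.30 (adjusted p = 0.0402), whereas RTG3 was higher by 0.53 ± 0.15 (adjusted p = 0.0211). The RTG1 call was lost without DMSO replicate 2 or SMER1 replicate 2 (adjusted p = 0.0574 and 0.141) and the RTG3 call without SMER1 replicate 1 (adjusted p = 0.0714). For the others the 95% intervals of the difference included 0. They ran from −0.22 to 0.21 for IDH2, −0.08 to 0.29 for IDH1, −0.17 to 0.23 for ACO1, −0.61 to 0.07 for CIT2 and −0.42 to 0.31 for DLD3. After quantile normalization IDH1 was called higher with SMER3 than with SMER1 (0.29, adjusted p = 0.0236). Against rapamycin, SMER3 left all 6 enzyme genes lower and RTG3 higher, by 0.62 ± 0.15 (adjusted p = 0.0104), where 29.9% of all genes were called lower and 20.7% higher. CIT2, DLD3, CIT1 and ACO1 were lower by −1.11 ± 0.15, −0.97 ± 0.16, −0.79 ± 0.07 and −0.70 ± 0.09 (adjusted p at most 0.00181). IDH1 and IDH2 were lower by −0.26 ± 0.08 and −0.29 ± 0.09 (adjusted p = 0.0311 and 0.0317), and both calls were lost after quantile normalization (−0.02 and −0.15; adjusted p = 0.832 and 0.110). Leaving out any of 4 arrays lost the IDH1 call (adjusted p = 0.0503 to 0.101), and any of 6 the IDH2 call (adjusted p = 0.0502 to 0.0887). RTG2 differed by −0.01 ± 0.11 and was not called.

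SMER2 stood out by low values of the genes from aconitase to isocitrate dehydrogenase. On its lone array all 6 enzyme genes lay below every DMSO array, as did 29.9% of all genes. IDH1 differed by −0.62 ± 0.08 (adjusted p = 0.0322) and passed the threshold. ACO1 was at −0.48 ± 0.08 (adjusted p = 0.0902) and IDH2 at −0.40 ± 0.09 (adjusted p = 0.165), and neither passed it. This is 1 of 10 genes called lower and 0 higher, where 0.22% of all genes were called lower and 0.0918% higher. The IDH1 call was lost when any 1 of the 9 replicated arrays was left out (adjusted p = 0.0539 to 0.105), while the difference itself stayed between −0.64 and −0.60. CIT1, CIT2 and DLD3 differed by −0.08 ± 0.07, −0.12 ± 0.14 and −0.14 ± 0.15, and RTG2 by 0.02 ± 0.11.

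SMER4 and SMER5 gave 0 called genes among the 10 by limma, and 0 at an unadjusted p under 0.05, with 0% of all genes called in each comparison. Differences lay between −0.00 and 0.28 for SMER4 and between 0.00 and 0.34 for SMER5, the highest being that of RTG1 in both. For CIT2 the 95% intervals ran from −0.26 to 0.39 and from −0.13 to 0.52, so a rise as large as the 0.66 of SMER1 lay outside them. The SMER1 interval itself ran from 0.41 to 0.91 and overlapped that of SMER5. Neither SMER4 nor SMER5 was compared with SMER1 directly. For IDH1 the SMER4 and SMER5 intervals ran from −0.03 to 0.33 and from −0.01 to 0.35. Against rapamycin, SMER2, SMER4 and SMER5 each left 7 of 10 genes lower, namely the 6 enzyme genes and RTG2, where 33.3%, 30.5% and 30.4% of all genes were called lower. CIT2 was lower by −1.62 ± 0.15, −1.44 ± 0.15 and −1.31 ± 0.15 in these comparisons (adjusted p = 0.000154, 0.000254 and 0.000408).

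Of 11 genes for the TCA cycle enzymes after isocitrate dehydrogenase, 11 were called higher with rapamycin, 9 with SMER1 and 11 with SMER1+Rapa, and 0 lower, where 39.7%, 36.5% and 39.6% of all genes were called higher. Their medians were 0.73, 0.60 and 0.84, beside 0.16, 0.09 and 0.09 over all genes. The succinate dehydrogenase subunit genes SDH1 and SDH4 rose by 1.13 ± 0.17 and 1.06 ± 0.10 with rapamycin, and the succinyl-CoA ligase gene LSC2 by 1.01 ± 0.06. With SMER1 the malate dehydrogenase gene MDH1 rose by 0.95 ± 0.07. SMER3 raised 5 of the 11 (median 0.29, beside 0.02 over all genes, of which 21.6% were called higher), among them MDH1 by 0.77 ± 0.09 and SDH1 by 0.73 ± 0.21. With SMER2, 0 of the 11 were called, and their differences lay between −0.11 and 0.17, against the −0.62 of IDH1.

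Isozymes and homologs of the 6 enzymes did not follow them uniformly. CIT3, the minor mitochondrial citrate and methylcitrate synthase, rose by 2.33 ± 0.07 with rapamycin, 1.33 ± 0.07 with SMER1 and 2.70 ± 0.07 with SMER1+Rapa, more than CIT1 or CIT2 did on this scale. CIT3 was dim, between 7.14 and 7.34 in DMSO, inside the range of the strain marker LEU2 (6.29 to 8.61). That ranking therefore sets a gene near background beside 2 bright ones. DLD1, the mitochondrial D-lactate dehydrogenase of respiratory lactate use, rose by 1.53 ± 0.09 with SMER1 and 0.87 ± 0.09 with rapamycin, whereas DLD3 gave 0.03 and 0.94. DLD2, the mitochondrial relative of DLD3, lay between −0.10 and 0.19 in rapamycin, SMER1, SMER1+Rapa, SMER2 and SMER3 and was not called in any of them. Among the NADP-dependent isocitrate dehydrogenases, the mitochondrial IDP1 rose by 0.74 ± 0.11 with rapamycin and fell by 0.37 ± 0.11 with SMER1, and the cytosolic IDP2 rose by 1.96 ± 0.28 with SMER3.

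Of 6 genes of anaplerosis and the glyoxylate cycle, 5 were called higher and 1 lower with rapamycin, 4 higher and 0 lower with SMER1, and 1 higher and 1 lower with SMER3. Of all genes, 39.7%, 36.5% and 21.6% were called higher in these comparisons and 20.4%, 25% and 14.8% lower, so the SMER3 counts are near those shares. The pyruvate carboxylase gene PYC1, which replenishes oxaloacetate, rose by 1.33 ± 0.10 with rapamycin, 0.73 ± 0.10 with SMER1 and 1.12 ± 0.10 with SMER1+Rapa, and was at 0.10 ± 0.13 with SMER3. The malate synthase gene MLS1, of the glyoxylate cycle, rose by 3.68 ± 0.19, 1.20 ± 0.19 and 2.97 ± 0.19 with the first 3 treatments and by 2.18 ± 0.24 with SMER3. MLS1 was dim in DMSO, between 6.25 and 6.69, near the lower end of the strain marker LEU2 (6.29 to 8.61). Its fold changes therefore start near background, although it reached 10.10 and 10.18 in rapamycin. ODC1 encodes a mitochondrial carrier that exports 2-oxoglutarate, and DIC1 the dicarboxylate carrier. ODC1 rose by 1.39 ± 0.09 and DIC1 by 1.26 ± 0.09 with rapamycin, against 0.31 ± 0.09 and 0.40 ± 0.09 with SMER1. Of the 7 carrier genes, 3 were called higher and 1 lower with rapamycin, and as many with SMER1. These counts are near the shares of all genes, 39.7% higher and 20.4% lower with rapamycin and 36.5% and 25% with SMER1. The oxaloacetate carrier gene OAC1 fell by 0.70 ± 0.07 with rapamycin and rose by 0.23 ± 0.07 with SMER1, whereas YHM2, for a citrate and 2-oxoglutarate carrier, rose by 0.36 ± 0.09 with rapamycin and fell by 0.67 ± 0.09 with SMER1. With SMER3 the succinate and fumarate carrier gene SFC1 rose by 1.43 ± 0.44, YHM2 fell by 0.46 ± 0.12, the paralog ODC2 rose by 0.68 ± 0.10 and ODC1 was at −0.11 ± 0.12. SFC1 was dim, at 5.62, 5.62 and 4.40 in DMSO and 6.64 on the SMER3 array. Its DMSO signal lay within the range of the strain marker MET17 (4.05 to 5.78), so the rise may reflect background. All 5 genes of glutamate and glutamine metabolism, GDH1, GDH2, GDH3, GLT1 and GLN1, rose with rapamycin (median 0.84, beside 0.16 over all genes, of which 39.7% were called higher), GDH3 by 3.42 ± 0.11 and GDH2 by 1.90 ± 0.09. With SMER1, where 36.5% of all genes were called higher, 4 of them rose and the glutamate synthase gene GLT1 fell by 1.12 ± 0.17 (adjusted p = 0.000825), and with SMER3, where 21.6% were, 0 of the 5 were called (−0.07 to 0.33).

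Of 4 further regulators of the pathway, 3 were called higher with rapamycin, SMER1 and SMER1+Rapa (medians 0.55, 0.38 and 0.51), and 1 with SMER3, LST8 (median 0.13). Of all genes, 39.7%, 36.5% and 39.6% were called higher with the first 3 treatments (medians 0.16, 0.09 and 0.09). With SMER3 the share was 21.6% (median 0.02), near the 1 of 4 seen here. LST8, a subunit of both TOR complexes whose mutants activate the retrograde pathway, had 12.65 on the SMER3 array, against 11.14, 11.10 and 11.05 in DMSO, and no other array exceeded 11.79. LST8 rose by 1.56 ± 0.09 with SMER3 (adjusted p = 1.88e-05), 0.64 ± 0.07 with rapamycin, 0.51 ± 0.07 with SMER1+Rapa and 0.27 ± 0.07 with SMER1. BMH1 and BMH2, whose products bind phosphorylated Mks1, rose by 0.45 ± 0.09 and 0.77 ± 0.09 with rapamycin and by 0.48 ± 0.09 and 0.73 ± 0.09 with SMER1. GRR1, the F-box gene whose product directs the turnover of free Mks1, was not called in any comparison with DMSO.

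The HAP genes, which encode the other activator of CIT1, ACO1, IDH1 and IDH2, took different directions. HAP4, the regulatory subunit, had 9.56 and 9.88 in rapamycin, 9.85 and 10.38 in SMER1, 10.23 and 10.55 in SMER1+Rapa, 11.55 in SMER3, 9.26 in SMER2, 10.05 in SMER4 and 10.19 in SMER5, against 10.06, 10.25 and 10.44 in DMSO. The SMER3 array was the highest and the SMER2 array the lowest of all 13. As for RTG1, the array numbered 1 lay below the array numbered 2 in each of the 4 replicated groups. The SMER2 and SMER3 arrays carry the number 1, and the HAP4 differences below are not adjusted for it. HAP4 rose by 1.30 ± 0.25 with SMER3 (adjusted p = 0.00562), fell by 0.54 ± 0.20 with rapamycin (adjusted p = 0.0478) and was at −0.995 ± 0.25 with SMER2 (adjusted p = 0.232). HAP5, a DNA-binding subunit, rose by 0.82 ± 0.08, 1.05 ± 0.08 and 1.18 ± 0.08 with rapamycin, SMER1 and SMER1+Rapa, and fell by 0.39 ± 0.10 with SMER3. HAP3 had 10.06 and 10.05 in rapamycin, against 10.58, 10.48 and 10.58 in DMSO. HAP2 had 10.51 in SMER3, against 9.70, 9.89 and 9.90 in DMSO. Of the 4 HAP genes, 1 was called higher and 2 lower with rapamycin, and 2 and 0 with SMER1. With SMER1+Rapa the counts were 2 and 1, and with SMER3 2 and 2. The shares of all genes were 39.7% and 20.4%, 36.5% and 25%, 39.6% and 31.2%, and 21.6% and 14.8%. The part of HAP4 in the IDH1, IDH2 and ACO1 values of SMER2 and SMER3 was not tested.

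**Figure D4:**
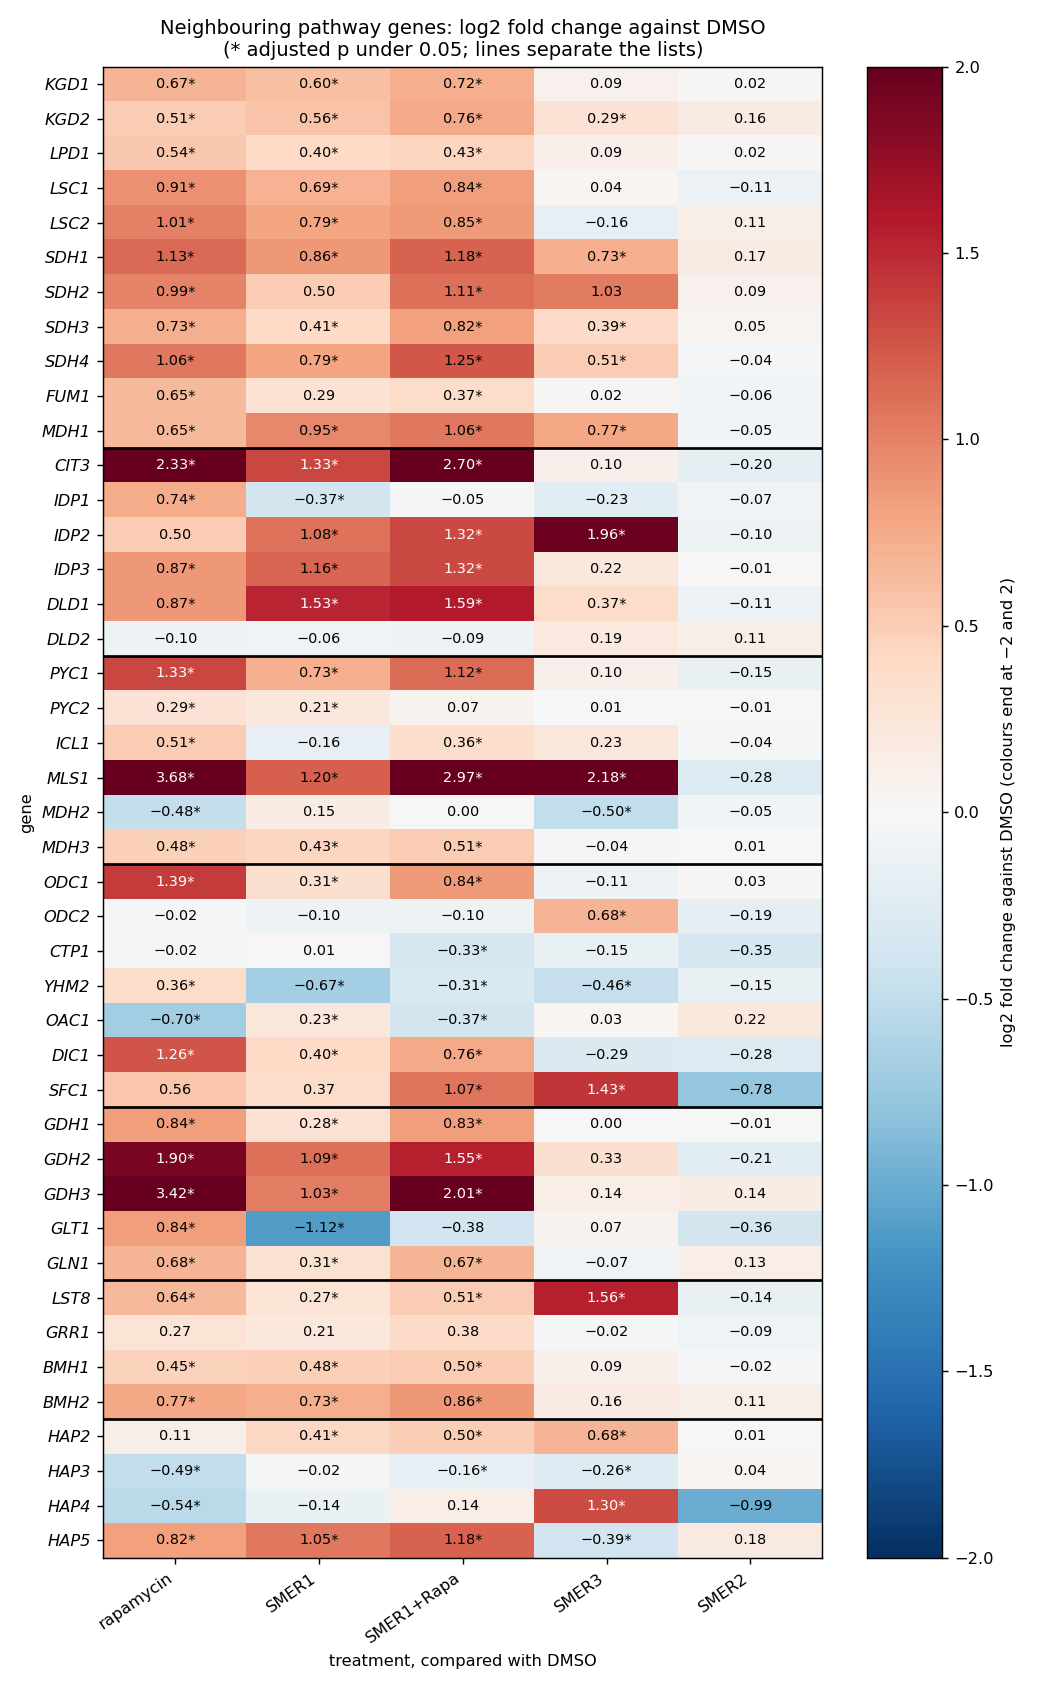
Log2 fold change against DMSO of the neighbouring genes (rows, with lines between the lists of TCA enzymes, isozymes, anaplerosis and glyoxylate cycle, carriers, glutamate enzymes, further regulators and HAP subunits) in 5 treatments (columns), with colours that end at −2 and 2 and an asterisk for an adjusted p from limma under 0.05. MLS1, which was dim in DMSO, reached 3.68 in rapamycin, and LST8 reached 1.56 and HAP4 1.30 in SMER3.

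All pairs of the 6 enzyme genes were positively correlated over the 8 group means, which share arrays and scaling. Pearson's r was 0.958 between CIT2 and CIT1, 0.928 between CIT2 and DLD3, and 0.804 between DLD3 and CIT1, and the lowest among the enzyme genes was 0.717, between DLD3 and IDH1. RTG2 followed IDH2 with r = 0.928, while RTG3 had r = −0.245 with CIT2 and MKS1 r = −0.307. Among the 2812 genes whose group means had an SD of at least 0.3, those most like CIT2 were the allantoin pathway gene DAL3 (r = 0.992), the mitophagy receptor gene ATG32 (0.990), YSP3 (0.988), the urea transporter gene DUR3 (0.987) and AVT7 (0.985). Those most like CIT1 were PIR3 (0.997), YJL068C (0.996), ASR1 (0.995), CMG1 (0.995) and the amino acid sensor gene PTR3 (0.993).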

How the data were processed

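Biotin-labelled cRNA from total RNA of 13 samples was hybridised to one-colour Affymetrix yeast arrays, per the labels' protocols. The deposited values reach from 0 to 14.67 and were therefore read as log2 signal intensities; the summary of probes and the normalization between arrays are not given in the sources used here. Of 5716 probe sets, 5498 had 1 gene name, 0 had several and 218 had none. The probe set with the highest mean was kept for each of 47 genes with more than 1, which left 5449 genes, and 12 symbols were updated from the R64 gene table.

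The deposited log2 values were fitted with limma 3.58.1 in R 4.3.3 (1 mean per group over all 13 arrays, eBayes, two-sided, with 5 residual and 2.36 prior degrees of freedom). The code was tested on simulated data. Alternatives were quantile normalization, median centring, leaving out the dimmest 25% of genes, averaging probe sets, the replicated groups alone, an intensity trend, the replicate number as a block, and leaving out each of 9 arrays. The 10 genes, the neighbouring lists and the rules were chosen with earlier results of these data known. Named were all 10 genes, any gene of a list of up to 7, the 4 largest called changes of longer lists, and the 5 genes most like CIT2 and CIT1. With 1 to 3 arrays a group, precision is limited throughout.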

Additional observations from a re-analysis of the deposited data

Results flagged for a closer look

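The effect of SMER1 with rapamycin minus its effect without rapamycin was called by limma's interaction term for 6 of the 10 genes: −0.87 for CIT1, −0.76 for CIT2, −0.73 for IDH1, −0.72 for IDH2, −0.61 for ACO1 and −0.47 for RTG2. Of all genes, 21.3% had a called negative interaction, as did 60.5% of the 1583 genes called higher with rapamycin and with SMER1. After quantile normalization limma no longer called CIT2 and RTG2 (adjusted p = 0.0534 and 0.0522), and the median over all genes moved from −0.18 to −0.00. For CIT1 the SMER1 effect was 0.10 with rapamycin and 0.97 without it, and for CIT2 it was −0.10 and 0.66.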

How the results depend on the processing

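Of 2454 recomputed differences (10 genes, 16 comparisons, 16 alternatives, where a fit was possible), 2350 kept their side of the threshold, 70 lost a call and 34 gained one; no called difference changed sign. Probe set averaging moved nothing, since each of the 10 genes has 1 probe set. Quantile normalization lost 8 calls and gained 4, and left 1 of 10 genes called between SMER1+Rapa and rapamycin. RTG1 was among the dimmest 25% and has no value there. Leaving out 1 array gave 0 genes called for SMER2 against DMSO in each of the 9 cases, 0 to 3 for SMER1+Rapa against rapamycin, and 1 to 5 for SMER1+Rapa against SMER1. The cause was not tested.

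Same-numbered arrays of different groups had deviations from their group means that correlated between 0.07 and 0.60, over 0.1 in 10 of 12 pairs, and all 8 arrays numbered 1 or 2 correlated best with their own number, a hint from the data and not the design. With the replicate number as a block, 3 genes were called for SMER2 against DMSO (IDH1, ACO1 at −0.50 and IDH2 at −0.46), 1 for SMER5 (RTG1) and 4 for SMER1+Rapa against rapamycin. RTG1 was then called higher with rapamycin (0.43, adjusted p = 0.000954) and SMER1 (0.54, adjusted p = 0.000377). RTG1's SMER3 difference from DMSO was −0.17 (adjusted p = 0.0790). Also called with the block were RTG2 (−0.17, adjusted p = 0.0246) and MKS1 (−0.19, adjusted p = 0.0395) in SMER1 against rapamycin, DLD3 in SMER1+Rapa against rapamycin (−0.33, adjusted p = 0.00781), IDH2 in SMER1+Rapa against SMER1 (0.21, adjusted p = 0.0201), MKS1 in SMER1+Rapa against DMSO (−0.19, adjusted p = 0.0295) and CIT2 in SMER3 against SMER1 (−0.34, adjusted p = 0.0439). The block lost 0 calls and gained 16 among the 10 genes. Calls over all genes also rose with the block in every comparison except SMER4 against DMSO, where they stayed at 0.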

Other observations

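The genes most like DLD3 over the 8 group means, named after their values were seen, were the GABA permease gene UGA4 (r = 0.996), the vacuolar carboxypeptidase gene CPS1 (0.996), the oligopeptide transporter gene OPT2 (0.993), and the allantoin pathway genes DAL1 (0.987) and DAL5 (0.987). Those most like IDH1, after IDH2, were YGR126W (0.979) and QCR6 (0.975), a subunit gene of respiratory complex III.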
